A study of Mus musculus with 8 samples.

Results

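Effector genes of the primitive endoderm were followed through 4 groups of RNA-seq libraries from mouse embryonic stem cells. They were the endocytosis genes Dab2, Cubn, Lrp2 and Amn, the receptor gene Pdgfra, and the basement membrane genes Lama1, Lamb1, Col4a1, Col4a2 and Sparc, chosen by symbol. All 10 were found among the 36920 genes of the count table, and all 10 had enough reads to be tested. The cells were of the mouse embryonic stem cell line R1, kept in serum with LIF, the cytokine that holds such cells undifferentiated. ML-792, which blocks the E1 enzyme that starts the attachment of SUMO to proteins, was given for 48 h between D1 and D3 and again between D8 and D10, at a dose labelled 2.5 mM. Each day has 2 libraries. The label control is given to D1 and D8 and the label ML-792 to D3 and D10, but the D8 cells had already been through the first exposure, so D1 holds the only libraries taken before any inhibitor. The time tag of D1 replicate 2 reads day 0 while its title reads D1, and it was kept at D1. No library at D3, D8 or D10 came from cells that never met ML-792, so the inhibitor and the days in culture cannot be told apart. The labels do not say whether both libraries of a day come from different dishes. The p-values therefore reflect the spread of these samples, which may be technical.

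The primitive endoderm is the sheet of cells that separates from the epiblast in the blastocyst, and its descendants, the visceral and parietal endoderm, line the yolk sac. The visceral endoderm takes up maternal nutrients through the receptors megalin (Lrp2) and cubilin (Cubn). Cubilin has no membrane span of its own and is anchored and carried to the surface by amnionless (Amn), and the adaptor disabled-2 (Dab2) links the receptors to clathrin. PDGF receptor alpha (Pdgfra) is an early surface marker of the lineage and responds to PDGF from neighbouring cells. The parietal endoderm lays down a thick basement membrane in which laminin, a trimer of an alpha, a beta and a gamma chain, and a network of collagen IV are laid over each other, and it secretes Sparc, a matrix protein that binds collagen. A few cells in stem cell cultures grown in serum can take up an endoderm-like state.

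Levels are CPM, the share of a library's reads that fell on a gene, with library sizes adjusted by TMM, and levels compared between genes are CPM per kb of exon. Libraries held 21040992 to 40835518 reads in genes. D8 replicate 2 stood apart from the rest in base composition: its deviations across genes correlated with GC content (Spearman rho 0.546), where the other 7 libraries lay between -0.336 and 0.133. Lowest were D10 replicate 1 (-0.336) and both D3 libraries (-0.33 and -0.284), so D3 also differed in this trend from D1 and D8. Amn, Col4a2 and Col4a1 are among the GC-richest genes tested (percentiles 98.8, 96.6 and 89.8), and Dab2 (30.1) and Cubn (33.7) are among the poorer. The libraries carried the markers of their labelled cell type: Pou5f1, the core pluripotency factor, averaged 776 to 1259 CPM over the groups, and all 8 stem cell markers had reads in every group. In such bulk RNA, more cells of an endoderm-like kind and more RNA per cell cannot be told apart.

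On mm10, the endocytosis genes are Dab2 (ENSMUSG00000022150) on chromosome 15 from 6299788 to 6440712, Cubn (ENSMUSG00000026726) on chromosome 2 from 13276338 to 13491813, Lrp2 (ENSMUSG00000027070) on chromosome 2 from 69424340 to 69586065 and Amn (ENSMUSG00000021278) on chromosome 12 from 111271095 to 111276426. They were low at D1 and D3 and higher in both later groups. Dab2 stood at 5.11 and 8.26 CPM on D1, 6.06 and 11.1 on D3, 55.3 and 67.6 on D8 and 32.6 and 21.8 on D10. Cubn stood at 10.1 and 18.0 CPM on D1, 17.4 and 36.9 on D3, 129 and 141 on D8 and 101 and 59.6 on D10. In both genes D8 was the highest group and D10 lay between D8 and the earlier days, with no overlap. Between D1 and D8, Dab2 rose 9.11-fold (log2 fold change 3.19 ± 0.35 SE, edgeR adjusted p = 0.041) and Cubn rose 9.5-fold (3.25 ± 0.42, 0.044). A gene is said to rise or fall only where its edgeR adjusted p was under 0.05 over all 19173 genes tested. Amn, the anchor of cubilin, was the least abundant by CPM, at 1.48 and 2.08 CPM on D1, 1.22 and 2.23 on D3, 4.32 and 11.1 on D8 and 4.41 and 3.40 on D10. Its D8 libraries were far apart, and its difference from D1 did not pass (2.1 ± 0.49, adjusted p = 0.17). Lrp2, the megalin gene, stood at 59.9 and 67.4 CPM on D1, 88.2 and 111 on D3, 116 and 175 on D8 and 155 and 141 on D10. It had the smallest difference between D1 and D8 of the 10 genes (1.19 ± 0.21, adjusted p = 0.09), and its values stepped up without overlap from D1 to D3 and from D3 to D8.

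Pdgfra, the receptor that marks the lineage at the cell surface, was the member called at D3 already. It stood at 3.63 and 4.63 CPM on D1, 10.1 and 14.3 on D3, 22.5 and 27.5 on D8 and 29.0 and 38.8 on D10. The gene (ENSMUSG00000029231) lies on chromosome 5 from 75152292 to 75198215 of mm10. The 4 groups did not overlap and followed the order of the days. It rose by 1.56 ± 0.25 on the log2 scale between D1 and D3 (edgeR adjusted p = 0.0071) and by 2.59 ± 0.26, or 6.01-fold, between D1 and D8 (0.041). By p-value it was number 1 of the 19173 genes between D1 and D8, with Dab2 number 4 and Cubn number 12.

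**Figure D1:**
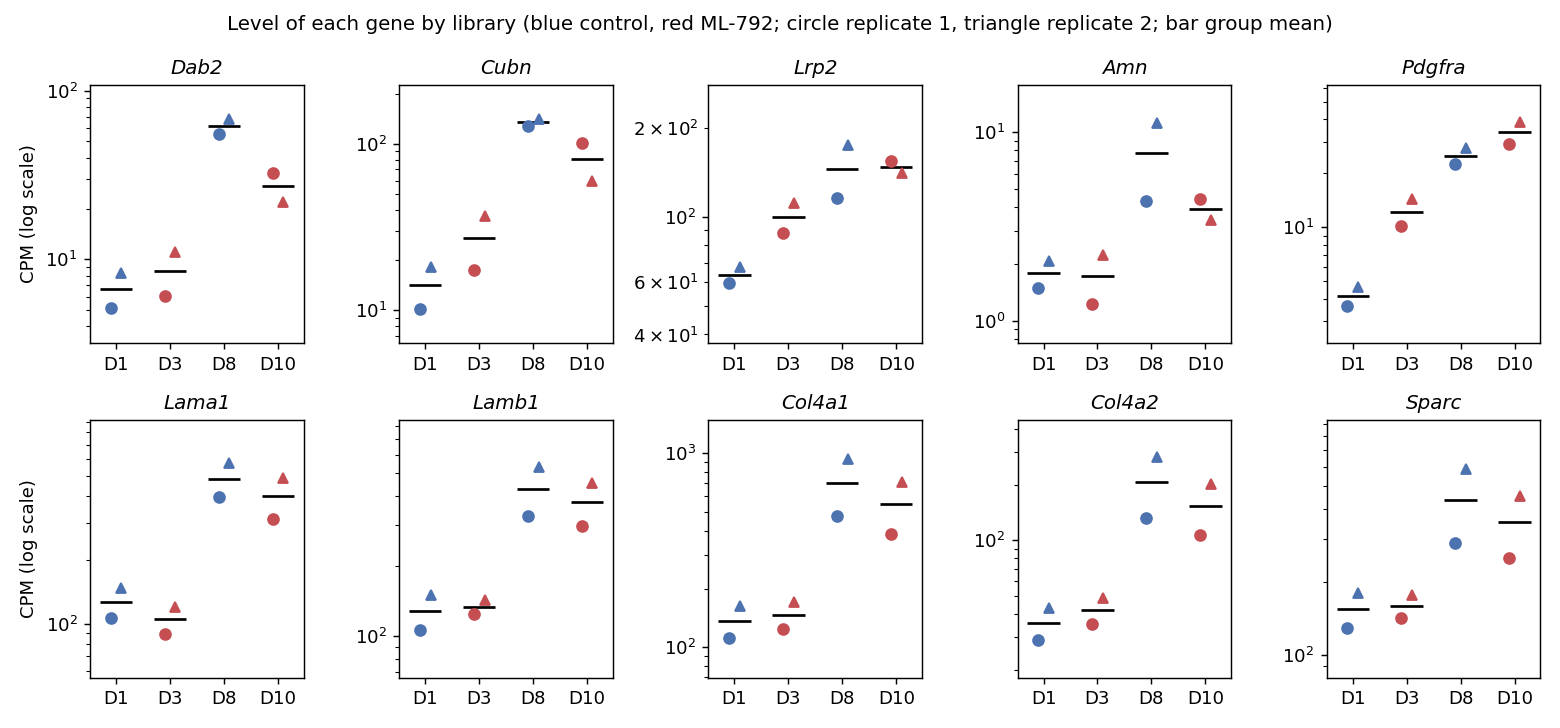
CPM of each of the 10 genes in every library on a log scale, by day, with blue for control and red for ML-792, circles for replicate 1, triangles for replicate 2 and a bar at the group mean. In every panel the 4 libraries of D8 and D10 lie above the 4 of D1 and D3, as in 2.54% of all genes tested. In Pdgfra and Lrp2 the D3 pair also lies above the D1 pair, as in 32.7% of all genes tested.

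The upstream sequences of these 3 called genes are shown because they are the members that passed the test between D1 and D8. Each is the stretch before a RefSeq start site on GRCm38.p6, cut where an annotated exon begins, and is read on the gene's strand. For Dab2, which has more than 1 such site, it is the first along the chromosome. Capitals mark any match, on either strand, to CCAAT, to the GC box GGGCGG, or to the GATA motifs AGATAA and TGATAA. The Dab2 stretch is chr15:6299539-6299787 (plus strand), the Cubn stretch chr2:13491877-13492126 (minus strand) and the Pdgfra stretch chr5:75152001-75152250 (plus strand).
Dab2: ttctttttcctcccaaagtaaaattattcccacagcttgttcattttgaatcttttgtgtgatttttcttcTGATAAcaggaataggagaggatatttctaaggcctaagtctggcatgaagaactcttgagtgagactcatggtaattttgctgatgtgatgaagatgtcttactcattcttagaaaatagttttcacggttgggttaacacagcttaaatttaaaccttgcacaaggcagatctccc
Cubn: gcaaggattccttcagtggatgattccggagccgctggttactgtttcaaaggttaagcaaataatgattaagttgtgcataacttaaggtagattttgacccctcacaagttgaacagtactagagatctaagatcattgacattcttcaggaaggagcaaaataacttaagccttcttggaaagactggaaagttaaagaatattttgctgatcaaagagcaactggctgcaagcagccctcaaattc
Pdgfra: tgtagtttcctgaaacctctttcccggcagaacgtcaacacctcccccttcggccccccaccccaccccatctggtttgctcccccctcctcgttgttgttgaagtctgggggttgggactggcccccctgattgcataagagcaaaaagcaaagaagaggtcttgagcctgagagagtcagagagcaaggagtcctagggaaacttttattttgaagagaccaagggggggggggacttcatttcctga
Dab2 holds 1 TGATAA, which begins 179 bases before the start site, and the Cubn and Pdgfra stretches hold none of these letters. The Dab2 and Cubn stretches are poor in GC (36.5% and 39.6%) and that of Pdgfra is richer (54.4%). Among 32851 RefSeq windows of 300 bases (from 250 before a start site to 50 after it), 9.05% hold TGATAA, 11.2% AGATAA, 37.4% CCAAT and 35.7% GGGCGG. A window was found for 9 of the 10 members and not for Lama1. In those full windows Dab2 was the member with AGATAA or TGATAA, both in the window of the printed stretch. Its other window (chr15:6386498-6386797) held none of the motifs. CCAAT and GGGCGG were both found in Amn, Lamb1, Col4a1 and Col4a2, and 2 copies of GGGCGG in Lrp2. The windows of Col4a1 (11312777 to 11313076) and Col4a2 (11312555 to 11312854) overlap on chromosome 8, so a match in the shared bases counts for both. These matches are descriptions of the letters and show no binding.

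The libraries of D1 and D3 overlapped in all 5 basement membrane genes. Those of D8 and D10 lay above them, as they did in 2.54% of all genes tested. Col4a1, the main chain of collagen IV, stood at 112 and 163 CPM on D1, 124 and 171 on D3, 475 and 932 on D8 and 386 and 712 on D10. Col4a2, its partner chain, stood at 28.9 and 42.9 CPM on D1, 35.1 and 48.8 on D3, 132 and 282 on D8 and 107 and 201 on D10. Both genes overlapped between D1 and D3 and between D8 and D10, and neither overlapped across that divide. The difference between D1 and D8 was 2.35 ± 0.39 for Col4a1 and 2.52 ± 0.42 for Col4a2, and neither passed (edgeR adjusted p = 0.073 and 0.074). With the GC trend of each library removed, the values were 2.12 and 2.26 and both passed (0.033 and 0.035), and without D8 replicate 2 they were 1.79 and 1.87 and did not (0.2 each).

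On mm10, the laminin and Sparc genes are Lama1 (ENSMUSG00000032796) on chromosome 17 from 67697259 to 67822647, Lamb1 (ENSMUSG00000002900) on chromosome 12 from 31265234 to 31329644 and Sparc (ENSMUSG00000018593) on chromosome 11 from 55394500 to 55423183. Lama1, the laminin alpha chain of the early embryo, stood at 106 and 148 CPM on D1, 88.9 and 121 on D3, 395 and 575 on D8 and 314 and 487 on D10. Lamb1, the beta chain it pairs with, stood at 106 and 150 CPM on D1, 125 and 143 on D3, 328 and 531 on D8 and 297 and 455 on D10. Sparc stood at 128 and 179 CPM on D1, 141 and 177 on D3, 290 and 586 on D8 and 252 and 454 on D10. All 3 show the same divide between the earlier and the later days, with the D8 libraries of Sparc the farthest apart. The difference between D1 and D8 was 1.93 ± 0.29 for Lama1, just above the threshold (edgeR adjusted p = 0.05 when rounded), 1.74 ± 0.29 for Lamb1 (0.071) and 1.51 ± 0.37 for Sparc (0.19). Without D8 replicate 2, Sparc was at 0.92 (0.62) and Amn at 1.26 (0.62).

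Counted together, 3 of the 10 genes rose between D1 and D8 (Dab2, Cubn and Pdgfra) and 0 fell, where edgeR called 0.141% of all genes tested higher and 0.0365% lower (27 and 7 genes). Among those 27 higher genes were also the endoderm transcription factor genes Gata4, Gata6 and Sox17, the proteoglycan gene Srgn from the endoderm marker list and, picked after its value was seen, the FGF receptor gene Fgfr2. All 10 members were higher at D8 without overlap, which held for 21.6% of all genes tested, and their median log2 fold change was 2.22 against 0 over all genes. The threshold lay close to the leading genes, and the calls, over all genes as among the members, depended on single libraries. Without 1 library, the lowest log2 fold change was 2.89 for Dab2, 2.9 for Cubn and 2.43 for Pdgfra. For Lrp2, the lowest of the 10, it was 0.86. DESeq2 called all 10 members and 424 of all genes. The edgeR fit called 8 members and 65 genes with the GC trend removed, and 10 and 973 without the low-count filter. The fit of D1 and D8 alone called 2 members and 2 genes. With same-numbered libraries paired in a replicate block, edgeR called 10 members and 535 genes, though these libraries share only a number.

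Between D3 and D8, over the days that followed the first exposure, 9 of the 10 genes rose and 0 fell, where 11.3% of all genes were called higher and 11.2% lower. The largest rise was in Dab2 (2.83 ± 0.35, edgeR adjusted p = 0.0014), followed by Cubn (2.31 ± 0.4), Col4a2 (2.3 ± 0.42), Col4a1 (2.25 ± 0.39) and Lama1 (2.21 ± 0.29). Amn rose by 2.15 ± 0.49, Lamb1 by 1.68 ± 0.29, Sparc by 1.46 ± 0.37 and Pdgfra by 1.03 ± 0.24. Lrp2 did not pass (0.54 ± 0.21, adjusted p = 0.093). The number called was 5 without D3 replicate 1 and 6 without D8 replicate 2. D8 vs D1 and D8 vs D3 share the D8 libraries. The D3 and D8 libraries also differed in their correlation with GC content (rho -0.33 and -0.284 against 0.064 and 0.546).

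The D10 libraries were set against those of D3, the earlier ML-792 group, because that comparison shares no library with D8 vs D1. Both comparisons may still not be independent. The differences between replicates correlated across genes at 0.498 between D8 and D10 and at 0.204 between D1 and D3. D10 vs D3 and the next comparison were added after the values were seen. All 10 members were higher at D10 without overlap, which held for 17.9% of all genes tested, with log2 fold changes from 0.57 ± 0.21 for Lrp2 to 1.93 ± 0.29 for Lama1 and a median of 1.52. None passed in edgeR (adjusted p 0.48 to 0.87), which called 0% of all genes higher and 0% lower. At an unadjusted p under 0.05, 10 members and 1073 of all genes were counted, and DESeq2 called 7 members and 76 genes. With the 2 later groups averaged and set against the 2 earlier ones, 8 members rose and 0 fell, where 0.407% of all genes were called higher and 0.12% lower. In all 10 the 4 later libraries lay above the 4 earlier ones, which held for 2.54% of genes tested. Dab2 (2.42 ± 0.24, edgeR adjusted p = 0.0096), Cubn (2.41 ± 0.29), Col4a2 (2.2 ± 0.29), Col4a1 (2.12 ± 0.27), Pdgfra (2.03 ± 0.18), Lama1 (1.93 ± 0.2), Lamb1 (1.62 ± 0.2) and Lrp2 (0.88 ± 0.15) passed, while Amn (1.63 ± 0.34, 0.084) and Sparc (1.33 ± 0.26, 0.076) did not. These calls depended on single libraries, over all genes as among the members, while the log2 fold changes of the members stayed between 0.71 and 2.73 over all alternatives.

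**Figure D2:**
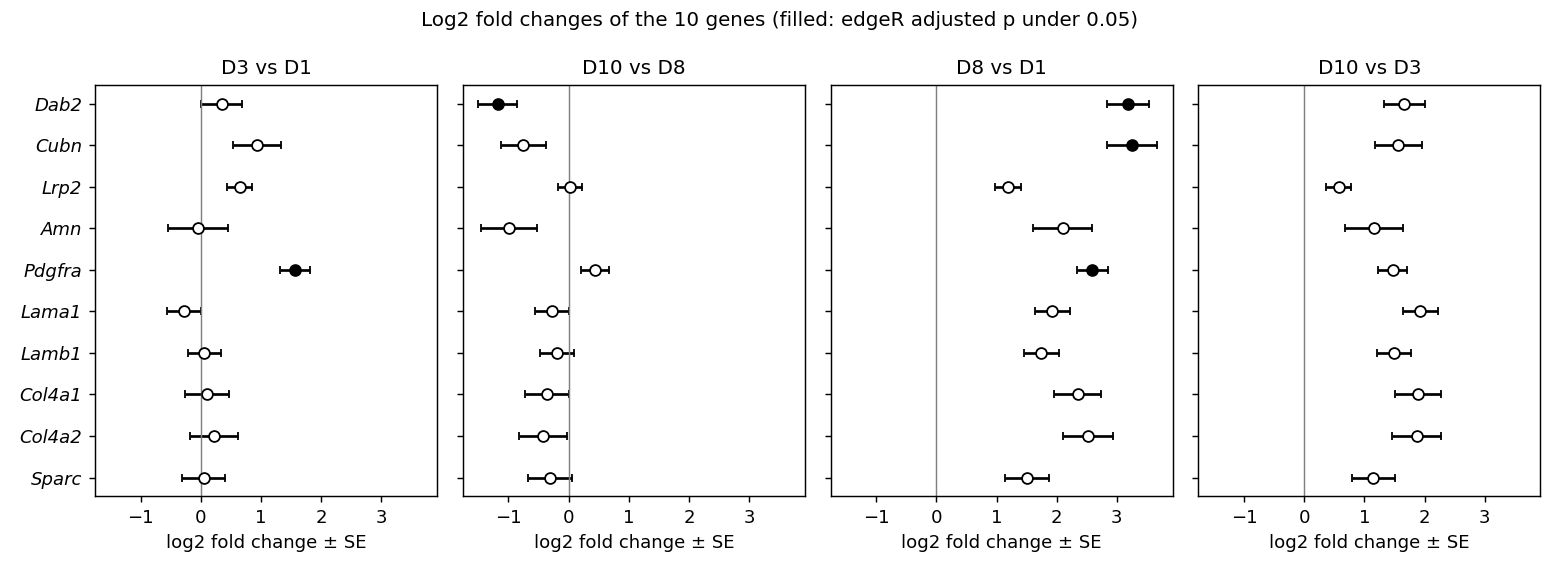
Log2 fold changes of the 10 genes with their SE in 4 comparisons, filled where the edgeR adjusted p was under 0.05. Across the exposures only Pdgfra in D3 vs D1 and Dab2 in D10 vs D8 are filled, with open points from -0.28 to 0.94 in the first and from -0.99 to 0.44 in the second, and values lie above 0 for every gene from D1 to D8 and from D3 to D10.

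Across each exposure 1 of the 10 genes was called, which is near the share of all genes called. Between D1 and D3, Pdgfra rose and 0 of the 10 fell, where 7.92% of all genes were called higher and 5.1% lower, and the median of the 10 was 0.16 against 0 over all genes. Lrp2 (0.65 ± 0.21, edgeR adjusted p = 0.075) and Cubn (0.94 ± 0.4, 0.16) came next and did not pass. The D3 libraries of Lrp2 lay above those of D1, while those of Cubn overlapped them by a narrow margin. The basement membrane genes ranged from -0.28 ± 0.28 for Lama1 to 0.22 ± 0.4 for Col4a2. The call for Pdgfra was lost without D1 replicate 1 (adjusted p = 0.061) or D1 replicate 2 (0.051). Lrp2 was called by DESeq2 (0.045) and with the GC trend removed (0.039).

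Between D8 and D10, Dab2 fell (-1.18 ± 0.32, edgeR adjusted p = 0.039) and 0 of the 10 rose, where 9.27% of all genes were called higher and 7.65% lower. The median of the 10 was -0.33 against 0.03 over all genes. Its partners in uptake, Cubn (-0.75 ± 0.38, 0.22) and Amn (-0.99 ± 0.46, 0.18), did not pass, although both D10 libraries of Cubn lay below those of D8. Pdgfra lay above without overlap (0.44 ± 0.23, 0.24) and the difference of Lrp2 was near 0 (0.03 ± 0.2). The 5 basement membrane genes lay between -0.43 and -0.19 and overlapped between the days. The call for Dab2 was lost without D8 replicate 2 (adjusted p = 0.12), D10 replicate 1 (0.058) or D10 replicate 2 (0.15).

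The response to the second exposure was then compared with that to the first, by the difference of both log2 fold changes. It was lowest for Cubn (-1.69 ± 0.55), Dab2 (-1.53 ± 0.47) and Pdgfra (-1.12 ± 0.34) and 0 for Lama1. No member passed in edgeR, which called 0% of all genes higher and 0% lower, and every member's adjusted p rounded to 1. At an unadjusted p under 0.05, 3 members (those first 3) and 575 of all genes were counted, and DESeq2 called 0 members and 2 genes. With all 4 ML-792 libraries set against all 4 control libraries, 0 members were called by edgeR or by DESeq2 and 0 had an unadjusted p under 0.05, where edgeR called 15.3% of all genes higher and 13.4% lower. In that fit the difference between the days counts as spread: the SE of Col4a1 was 0.68 there, against 0.37 between D8 and D10.

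Per kb of exon, the secreted and matrix genes were the most abundant of the 10 on every day. At D1 the group means per kb were 40.6 CPM for Sparc, 18.4 for Col4a1, 13.1 for Lama1, 12.9 for Lamb1, 5.43 for Col4a2 and 3.81 for Lrp2. Amn (0.966), Cubn (0.943), Dab2 (0.911) and Pdgfra (0.412) made up the lower end, and there Amn, Cubn and Dab2 did not differ beyond their spread. At D8 the order of the matrix genes was the same, from 116 ± 55.2 (SD, n = 2) for Sparc and 94.2 ± 43.4 for Col4a1 through Lama1 (50.1 ± 13.1) and Lamb1 (43.3 ± 14.4) to Col4a2 (31.2 ± 16.0). The libraries of neighbours in that order overlapped, except those of Col4a1, which lay above those of Lama1, while within each D8 library the order was the same. The receptors Cubn (9.02 ± 0.60) and Lrp2 (8.69 ± 2.50) and the adaptor Dab2 (8.37 ± 1.19) had come to like levels, whereas at D1 Lrp2 had stood well above the other pair.

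**Figure D3:**
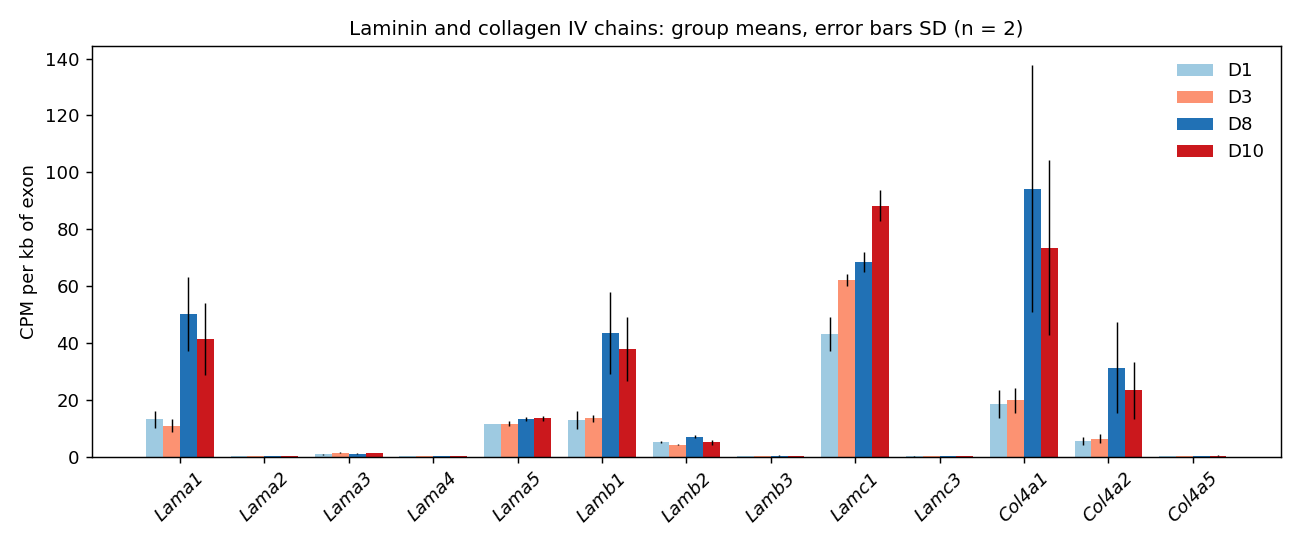
Group means of laminin and collagen IV chains in CPM per kb of exon, with the SD of the 2 libraries as error bars and 1 color a day. Lama1, Lamb1, Col4a1 and Col4a2 are high at D8 and D10, Lamc1 is high on every day, and no other chain drawn has a group mean above 13.4.

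The genes whose products are joined in 1 trimer were compared by their ratio within each library, which needs no library scaling. Col4a1 (ENSMUSG00000031502) and Col4a2 (ENSMUSG00000031503) lie head to head on chromosome 8 of mm10 (11198423 to 11312826 on the minus strand and 11312805 to 11449287 on the plus strand), and their first exons share 22 bases. Per kb of exon, Col4a1 stood at 3.43 and 3.37 times Col4a2 on D1, 3.14 and 3.11 on D3, 3.19 and 2.94 on D8 and 3.21 and 3.14 on D10. The ratio therefore stayed within 2.94 to 3.43 while both genes varied several-fold, and it was highest in the D1 pair. Lama1 stood at 1.02 and 1.01 times Lamb1 on D1, 0.731 and 0.866 on D3, 1.23 and 1.11 on D8 and 1.08 and 1.1 on D10. The D3 libraries were thus the lowest, and the D10 libraries lay below those of D8 by a narrow margin. On the log2 scale, ML-792 minus control was -0.03 for the collagen ratio (1.66 ± 0.02 against 1.69 ± 0.1, SD, n = 4 each) and -0.23 for the laminin ratio (-0.1 ± 0.28 against 0.12 ± 0.13). Neither passed a 2-sided exact permutation test (p = 0.514 and 0.229, where the smallest possible is 0.0286). That test pools the days, so differences between days count as spread and it cannot decide on a shift within each exposure.

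**Figure D4:**
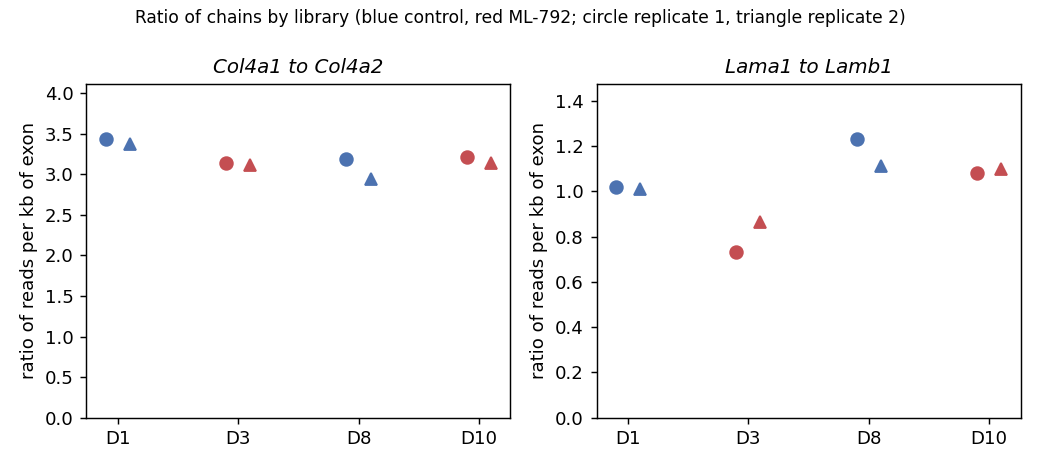
Ratio of Col4a1 to Col4a2 and of Lama1 to Lamb1, in reads per kb of exon, in each library by day, with blue for control and red for ML-792. The collagen ratio lies between 2.94 and 3.43 in all 8 libraries, and the laminin ratio is lowest in the D3 pair.

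Of 13 other laminin and collagen IV chains, 10 were tested. Col4a3, Col4a4 and Col4a6 had too few reads. Lamc1, the gamma chain that joins Lama1 and Lamb1, was the most abundant chain at D1 (43.1 CPM per kb), rose between D1 and D3 (0.53 ± 0.14, edgeR adjusted p = 0.039) and was the 1 chain of the 10 that rose from the earlier to the later groups (0.58 ± 0.1, 0.047). Lama5, the alpha chain of many adult basement membranes, stayed between 10.98 and 13.95 CPM per kb in every library. Lama2, the alpha chain of muscle laminin, rose between D8 and D10 (2.23 ± 0.4, edgeR adjusted p = 0.0083). Its level was low, with means of 0.21 CPM at D8 and 1.01 at D10. The median of the 10 between D1 and D8 was 0.28, with 0 called by edgeR.

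Of 15 other basement membrane components and receptors tested (of 17), 2 rose and 2 fell between D1 and D3. Between D8 and D10, 4 rose and 1 fell, and edgeR called 0 between D1 and D8. Over all genes tested, 7.92% were called higher and 5.1% lower between D1 and D3, and 9.27% and 7.65% between D8 and D10. Nid1, which bridges laminin and collagen IV, averaged 91.3 CPM at D1 and 89.4 at D8, and fell in both exposures (-1.92 ± 0.22, adjusted p = 0.0025 and -1.61 ± 0.21, 0.0027). The integrin gene Itgav rose in both (0.72 ± 0.18, 0.035 and 0.74 ± 0.18, 0.027), as did Smoc2, a relative of Sparc that stayed under 1 CPM. Of 16 genes of collagen folding, modification and export, 4 rose and 2 fell between D1 and D3, and 3 rose and 2 fell between D8 and D10. Plod2, a collagen lysyl hydroxylase, rose from 93.6 ± 19.8 to 273 ± 43.6 CPM (SD, n = 2) in the first exposure and from 123 ± 19.7 to 333 ± 31.0 in the second (edgeR adjusted p = 0.0035 and 0.0031). Pxdn, the peroxidase that crosslinks collagen IV, rose in both (1.23 ± 0.29, 0.029 and 1.19 ± 0.29, 0.025). Serpinh1, the collagen chaperone, followed the days instead: it was the 1 gene of the list that rose from the earlier to the later groups (1.3 ± 0.21, 0.045).

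Of 24 other endocytic receptors and adaptors, 1 rose and 3 fell between D1 and D3. Between D8 and D10, 1 rose and 4 fell, and edgeR called 0 between D1 and D8, where their median was 0.19. The shares of all genes called were 7.92% higher and 5.1% lower between D1 and D3, and 9.27% and 7.65% between D8 and D10. The apolipoprotein E receptor gene Lrp8 (-1.11 ± 0.21, adjusted p = 0.011 and -0.9 ± 0.2, 0.019) and the clathrin light chain gene Cltb (-1.15 ± 0.19, 0.0082 and -1.32 ± 0.19, 0.0038) fell in both exposures. Clcn5, which encodes an endosomal chloride transporter, rose in both (1.22 ± 0.17 and 0.71 ± 0.16). The endocytic motor gene Myo6 rose between D3 and D8 (1.01 ± 0.27, edgeR adjusted p = 0.027), as did Lrpap1, the chaperone of megalin, which was picked after its values were seen (0.99 ± 0.28, 0.036). Of the 5 other genes of the PDGF family, 0 rose and 3 fell between D1 and D3, and 0 rose and 4 fell between D8 and D10. The ligand gene Pdgfa, whose product binds the receptor encoded by Pdgfra, fell in both exposures (-1.07 ± 0.28, 0.038 and -1.22 ± 0.28, 0.02) and Pdgfc fell further (-2.32 ± 0.3, 0.0034 and -2.07 ± 0.29, 0.0034). Pdgfa and Pdgfc thus differed in direction from Pdgfra in the first exposure. The other receptor gene, Pdgfrb, averaged 3.8 CPM at D1 and 1.8 at D3, and the ligand gene Pdgfd 0.15 and 0.26.

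Of 7 endoderm transcription factor genes, 3 rose and 0 fell between D1 and D8, where 0.141% of all genes were called higher and 0.0365% lower. The summed level of the 7 was 12.7 to 15 CPM at D1, 15.1 to 22.2 at D3, 45.3 to 87.6 at D8 and 44.2 to 60.8 at D10. Gata4, Gata6 and Sox17 rose between D1 and D8 (3.01, 2.28 and 3.01, edgeR adjusted p 0.041 to 0.048). Of 10 markers of visceral and parietal endoderm 7 were tested, with a sum of 12.8 to 17 CPM at D1 and 51.7 to 72.2 at D8, where Srgn averaged 5.72 and 45 CPM. Srgn was the 1 gene of these 7 that rose between D1 and D8 (edgeR adjusted p = 0.044), 0 fell, Apob (-0.01 ± 0.53) and Rbp4 (-0.6 ± 0.51) did not lie above 0, and Fst rose in both exposures (1.52 ± 0.42, 0.048 and 2.05 ± 0.41, 0.012). The visceral endoderm products Afp, Ttr and Apoa1 averaged under 1 CPM in every group. The trophoblast list went from 56.5 to 57.8 CPM at D1 to 98.9 to 288 at D8, mostly from Krt8 (22.0 and 82.2 CPM), Krt18 (14.8 and 73.3) and Tfap2c (20 and 36.6). The keratins are also expressed in endoderm. All 6 genes of that list tested lay above 0 between D1 and D8 (median 1.93), 0 of them were called by edgeR, and Cdx2, Elf5, Gata3 and Hand1 averaged at most 1.11 CPM in any group. The 11 fibroblast markers summed to 36.9 to 38.9 CPM at D1 and 32.9 to 47.2 at D8, with 5 and 3 of them at 0 reads, and Dcn, Lum and Postn averaged under 0.1 CPM in every group. The 6 endothelial markers measured summed to 84.5 to 100 CPM at D1 and 82.1 to 116 at D8. The 8 stem cell markers summed to 5000 to 5500 CPM at D1, 3340 to 3540 at D3, 5150 to 5670 at D8 and 2580 to 2890 at D10. Their sums at D8 lay near those at D1, but single markers differed in direction. Between D1 and D8, 6 of the 8 lay above 0 and 0 were called. Nanog (-0.54 ± 0.24, edgeR adjusted p = 0.41) and Zfp42 (-0.39 ± 0.16, 0.38) were lower at D8 without overlap, as were 20.3% of all genes tested. Of the 8, edgeR called 2 lower between D1 and D3 and 7 lower between D8 and D10. The shares of all genes called lower were 5.1% and 7.65%. The part of a change in the make-up of the cultures in the members' levels was not tested.

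The libraries of a group differed in a patterned way. For Pdgfra and the 5 basement membrane genes, replicate 2 lay above replicate 1 in all 4 groups, as it did for 16.9% of all genes tested. The log2 ratio of replicate 2 to replicate 1 was 0.97 at D8 and 0.88 at D10 for Col4a1, 1.09 and 0.92 for Col4a2, and 1.01 and 0.85 for Sparc, against 0.32 to 0.57 for these genes at D1 and D3. The endocytosis genes Dab2, Cubn, Lrp2 and Amn were higher in replicate 2 at D1, D3 and D8 and lower in it at D10, where the ratios were -0.58, -0.77, -0.14 and -0.38. The endocytic and the matrix genes thus took different sides within the D10 pair, with Lrp2 nearest to 0. That split rests on 1 pair of libraries, which also differed in their correlation with GC content (rho -0.336 and 0.042). How many of all genes follow the endocytic pattern was not counted, and its cause was not tested.

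**Figure D5:**
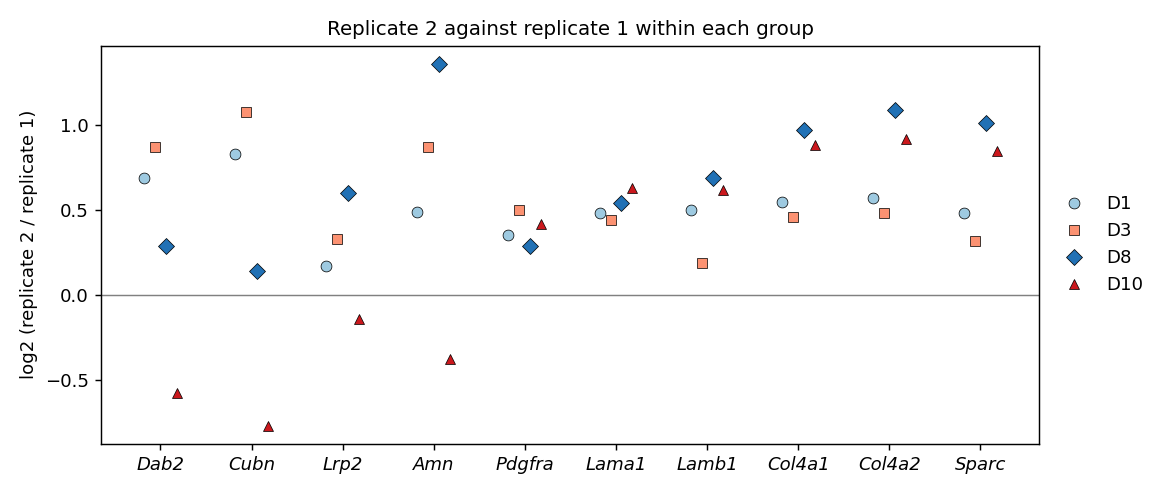
Log2 ratio of replicate 2 to replicate 1 for each gene, with 1 symbol a day. Pdgfra and the basement membrane genes lie above 0 on all 4 days, while Dab2, Cubn, Lrp2 and Amn lie below 0 at D10.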

How the data were processed

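RNA was sequenced in 8 libraries of R1 cells, 2 each at D1, D3, D8 and D10. The authors deposited raw counts, which are whole reads assigned to each Ensembl gene, unnormalized. Per the submitters' processing notes, bcl2fastq 2.17.1.14, STAR 2.5.0a, featureCounts and the build mm10 were used, and their strand and multi-mapping settings are not stated there. Per the labels' protocols, libraries were stranded and depleted of ribosomal RNA. Symbols, lengths and GC content came from GENCODE M21 (mm10), which matched 36901 of 36920 identifiers, and promoter sequences from RefSeq on GRCm38.p6. Cubn, Dab2, Pdgfra, Col4a1 and Col4a2 share 22 to 456 exon bases with genes on the opposite strand, so a small part of their reads is uncertain if strand was not used.

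Genes were kept by filterByExpr (19173 of 36920). Tests were contrasts of 1 edgeR 4.0.16 quasi-likelihood fit of the 4 groups (R 4.3.3, TMM, 4 residual degrees of freedom, coefficient of variation 19.6%), or of treatment alone for ML-792 vs control. They were 2-sided, with Benjamini-Hochberg adjustment over all genes and a threshold of 0.05. The SE is the log2 fold change divided by the square root of F. Group spreads are SDs of 2 libraries. The members, lists and tests were chosen with earlier results of these data known. All 10 members are named whatever their value, and of each other list up to 4 called genes with the largest change per comparison, of which a part is printed. Alternatives were RLE size factors, DESeq2 1.42.0, other filters, a replicate block, removal of each library's GC trend, fits of only the 2 groups compared and leaving out each library. The procedure was tested on simulated data. Some genes of the lists are not reported here.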

Additional observations from a re-analysis of the deposited data

How the results depend on the processing

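The direction of every member from D1 to D8, from D3 to D8, from D3 to D10 and from the earlier to the later groups was kept under all alternatives run. Of 1250 values of single members and alternatives, 1053 kept their direction and their side of the threshold, 102 gained a call, 50 lost one and 45 changed sign, none of these 45 with an adjusted p under 0.32. Those sign changes were in the exposures, in their difference and in ML-792 vs control. Leaving out 1 library moved the number of members called between 0 and 2 for D3 vs D1 and for D10 vs D8, 0 and 10 for D8 vs D1, 5 and 10 for D8 vs D3, and 0 and 10 for the later against the earlier groups. In those fits the lone library of a group is assumed to vary like the others.

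Other settings moved the number of members called as follows. For D3 vs D1 it was 2 with DESeq2, the GC correction or only the 2 groups compared and 3 without the low-count filter, against 1. For D10 vs D8 it was 3 without that filter, against 1. For D8 vs D1 it was 10 with DESeq2 or without the filter and 8 with the GC correction, against 3. For D10 vs D3 it was 7 with DESeq2 and 8 without the filter, against 0, and for the difference between exposures 2 without the filter, against 0. With the replicate block, in which same-numbered libraries are paired, the number of members called was 2 for D3 vs D1, 2 for D10 vs D8, 10 for D8 vs D1 and 6 for D10 vs D3, and with the block and the GC correction together 3, 1, 10 and 7. The libraries share only a number, though deviations of same-numbered libraries correlated across genes at 0.101 to 0.498 between groups. The block gave Lama1 a difference between exposures of -0.01. The GC correction gave Amn 0.09 between D1 and D3 (0.08 with the replicate block) and Col4a1 0 for ML-792 vs control.

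Over the fits that leave out 1 library, log2 fold changes between D1 and D3 ranged from -0.2 to 0.33 for Lamb1, -0.17 to 0.4 for Col4a1, -0.06 to 0.54 for Col4a2, -0.2 to 0.31 for Sparc, -0.57 to 0.3 for Amn and -0.17 to 0.75 for Dab2. Between D8 and D10 they ranged from -0.25 to 0.32 for Lrp2, -0.57 to 0.16 for Lamb1, -0.9 to 0.17 for Col4a1, -0.99 to 0.18 for Col4a2, -0.83 to 0.25 for Sparc and -0.66 to 0.01 for Lama1. The difference between exposures ranged from -0.37 to 0.3 for Lama1, -0.61 to 0.12 for Lamb1, -0.99 to 0.09 for Col4a1 and -0.86 to 0.22 for Sparc. ML-792 vs control ranged from -0.59 to 0.35 for Lamb1, -0.91 to 0.45 for Col4a1, -0.97 to 0.01 for Cubn, -1.08 to 0.06 for Amn, -0.84 to 0.19 for Lama1, -0.96 to 0.49 for Col4a2 and -0.66 to 0.33 for Sparc. Removing 1 library leaves fewer samples, and beyond that the cause was not tested.

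Over all genes, the number called for D8 vs D1 was 34, with 424 by DESeq2, 973 without the low-count filter, 535 with the replicate block (517 with the GC correction too), 65 with the GC correction, 2 with only those groups, and 0 to 436 without 1 library. For D3 vs D1 it was 2496, with 4035 from only those groups, 3847 without the filter, 4187 with the replicate block (4891 with the GC correction too) and 387 to 3238 without 1 library. For D10 vs D8 it was 3244, with 5298 and 5431 with the block, 1512 from only those groups and 1420 to 4304 without 1 library. For D8 vs D3 it was 4312, with 6547 with the block and 1522 to 5869 without 1 library. For the later against the earlier groups it was 101, with 666 by DESeq2, 1269 without the filter, 928 with the block (991 with the GC correction too), 226 with the GC correction and 0 to 521 without 1 library. For D10 vs D3 it was 0, with 76 by DESeq2, 373 without the filter and 28 with the block (61 with the GC correction too), and for the difference between exposures 0, with 2 by DESeq2 and 66 without the filter.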
